A study of Mus musculus with 16 samples.

Results

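Neural lineage genes were followed in mouse embryonic stem cells (mESCs) that carried different DNA methylation machinery and were grown in serum or in 2i. The genes were Pax6, Sox1, Nes, Neurog3, Nefm, Nefl, Gap43, Tubb3 and Dcx, 9 of the 21154 genes named on the array, and their 13 probes of 55681 were found by the RefSeq accession of each probe. They were selected on measured values of these same arrays, since Gap43 is lower in 2i in all lines and Nefm is high in TKO cells in 2i. The values of Gap43 between media, and those of Nefm in TKO cells in 2i, are therefore given as a description, without a test.

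Total RNA was hybridised to 16 one-colour arrays in 6 groups. The J1 line had 4 arrays in serum and 3 in 2i, TKO had 2 in serum and 3 in 2i, and 3B3l had 2 in each medium, and groups are written as J1-serum, J1-2i and so on. J1 is the wild-type male line of strain 129S4/SvJae from which the others derive. TKO cells lack all 3 active DNA methyltransferases (Dnmt1, Dnmt3a, Dnmt3b), and 3B3l cells lack Dnmt3a and Dnmt3b but express exogenous Dnmt3b and its cofactor Dnmt3l constitutively. Serum medium held LIF at 500 U/ml. 2i medium is serum-free and held LIF at 1000 U/ml, PD0325901 at 1 uM (an inhibitor of the kinase MEK) and CHIR99021 at 3 uM (an inhibitor of the kinase GSK3), and cells spent 2 weeks in it. According to the methods, J1 cells in serum grew on inactivated SNLP feeder cells, whereas the TKO and 3B3l lines grew without feeders, and the study describes its cells in 2i as grown on gelatin. The comparisons describe the response of these genes to 2i, and their level in each medium, in lines that carry different methyltransferases. Each genotype is a single line, and feeders and array slides also differ between lines. The part of the methyltransferases therefore cannot be told apart from these. Nothing in the labels says whether the arrays of a group came from separate cultures, so p-values measure the spread between these arrays only.

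Neural fate begins when the epiblast turns into neuroectoderm, and mESCs in serum are known to express some genes of later lineages at low level while they self-renew. Sox1 and Pax6 are transcription factors of the neural plate and of neural progenitors, and Nes encodes the intermediate filament of those progenitors. Neurog3 is a proneural basic helix-loop-helix factor that also acts in the endocrine pancreas. Neurons then switch to neurofilaments (Nefl and Nefm), neuronal beta-tubulin (Tubb3), the microtubule binding protein doublecortin (Dcx) and the growth cone protein Gap43.

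Since the lines differ in their DNA methyltransferases, the CG dinucleotides, the main sites of DNA methylation in mammals, are shown for 3 promoters. They are Tubb3, which differed between lines and not detectably between media, Pax6, which differed with both, and Dcx, which was not detected. Each sequence is the 250 bases before a RefSeq transcription start (build GRCm38.p6), 5′ to 3′ on the strand of the gene, with every CG in capitals.
Tubb3, chr8:123411303-123411552, plus strand: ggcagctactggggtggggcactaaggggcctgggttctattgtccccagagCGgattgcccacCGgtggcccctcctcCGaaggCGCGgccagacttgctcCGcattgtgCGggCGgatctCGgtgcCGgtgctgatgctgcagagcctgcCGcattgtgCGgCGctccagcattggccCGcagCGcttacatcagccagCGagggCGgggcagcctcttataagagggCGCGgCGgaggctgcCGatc
Pax6, chr2:105668646-105668895, plus strand: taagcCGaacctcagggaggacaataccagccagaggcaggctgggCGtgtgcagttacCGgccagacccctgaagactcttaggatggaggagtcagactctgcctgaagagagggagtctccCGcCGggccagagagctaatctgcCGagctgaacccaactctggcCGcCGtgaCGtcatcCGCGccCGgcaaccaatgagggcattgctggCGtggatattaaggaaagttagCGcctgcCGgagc
Dcx, chrX:143933220-143933469, minus strand: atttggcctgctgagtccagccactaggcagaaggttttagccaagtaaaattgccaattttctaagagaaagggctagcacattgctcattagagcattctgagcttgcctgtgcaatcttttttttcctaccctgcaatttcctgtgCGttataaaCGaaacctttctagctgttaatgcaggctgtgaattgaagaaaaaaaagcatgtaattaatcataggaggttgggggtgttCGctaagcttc

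The Tubb3 window held 21 CG, the Pax6 window 15 and the Dcx window 3. Over 32851 such windows of 27025 genes, 92.1% held at least 1 CG and the median was 6. As many CG as before Tubb3 were found in 16.3% of windows and as many as before Pax6 in 27.3%, whereas 37.8% held as few as the Dcx window. Windows were given for 6 of the 9 genes, and those of Nes and Sox1 held 15 and 29 CG and that of Neurog3 held 18. The counts describe the sequence alone, since methylation was not measured on these arrays.

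Levels are log2 of the processed signal after division by the array's own 75th percentile. A probe was well above background where the scanner software flagged at least 50% of its spots on that array. The 75th percentile lay between 1019 and 1797 intensity units, and 39.7 to 49.0% of spots per array were well above background. Where the probes of the targeted genes lie relative to the deleted parts was not examined. Dnmt1 lay between -1.70 and -1.42 in TKO cells, still well above background on all 5 arrays, and between 1.61 and 2.45 in J1, and neither TKO nor 3B3l had an array with Dnmt3a well above background. Dnmt3b lay between -0.70 and -0.25 in TKO, well above background on all 5 arrays, and between 5.44 and 6.01 in 3B3l against 2.88 to 3.08 in J1-serum. Dnmt3l lay between 5.80 and 5.89 in 3B3l-serum and 4.29 and 4.48 in 3B3l-2i, against 4.43 to 4.98 in J1-serum and 0.69 to 0.80 in J1-2i. Of 8 embryonic stem cell markers, all were well above background on every array. The summed level (linear scale, in multiples of the 75th percentile) of 15 fibroblast markers, which feeder cells express, was 33.1 to 41.8 in J1-serum, 7.51 to 8.42 in TKO-serum, 16.4 to 17.5 in 3B3l-serum and between 2.0 and 4.13 in the 2i groups. J1-serum had 10 of the 15 well above background on every array, TKO-serum 8, 3B3l-serum 7, TKO-2i 6, 3B3l-2i 5 and J1-2i 3; Lum, Fap and Prrx1 were not detected on any. Their part in the results was not tested. The arrays of the 3B3l line all lay on slide 3, with J1-serum replicate 1, and all other arrays on slides 1 and 2, so 3B3l and J1 in 2i shared no slide. Slide 3 was scanned on another day than slides 1 and 2. Where slide is taken as a block, comparisons of 3B3l with J1 rest on that 1 J1-serum array, so line and slide cannot be told apart.

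**Figure D1:**
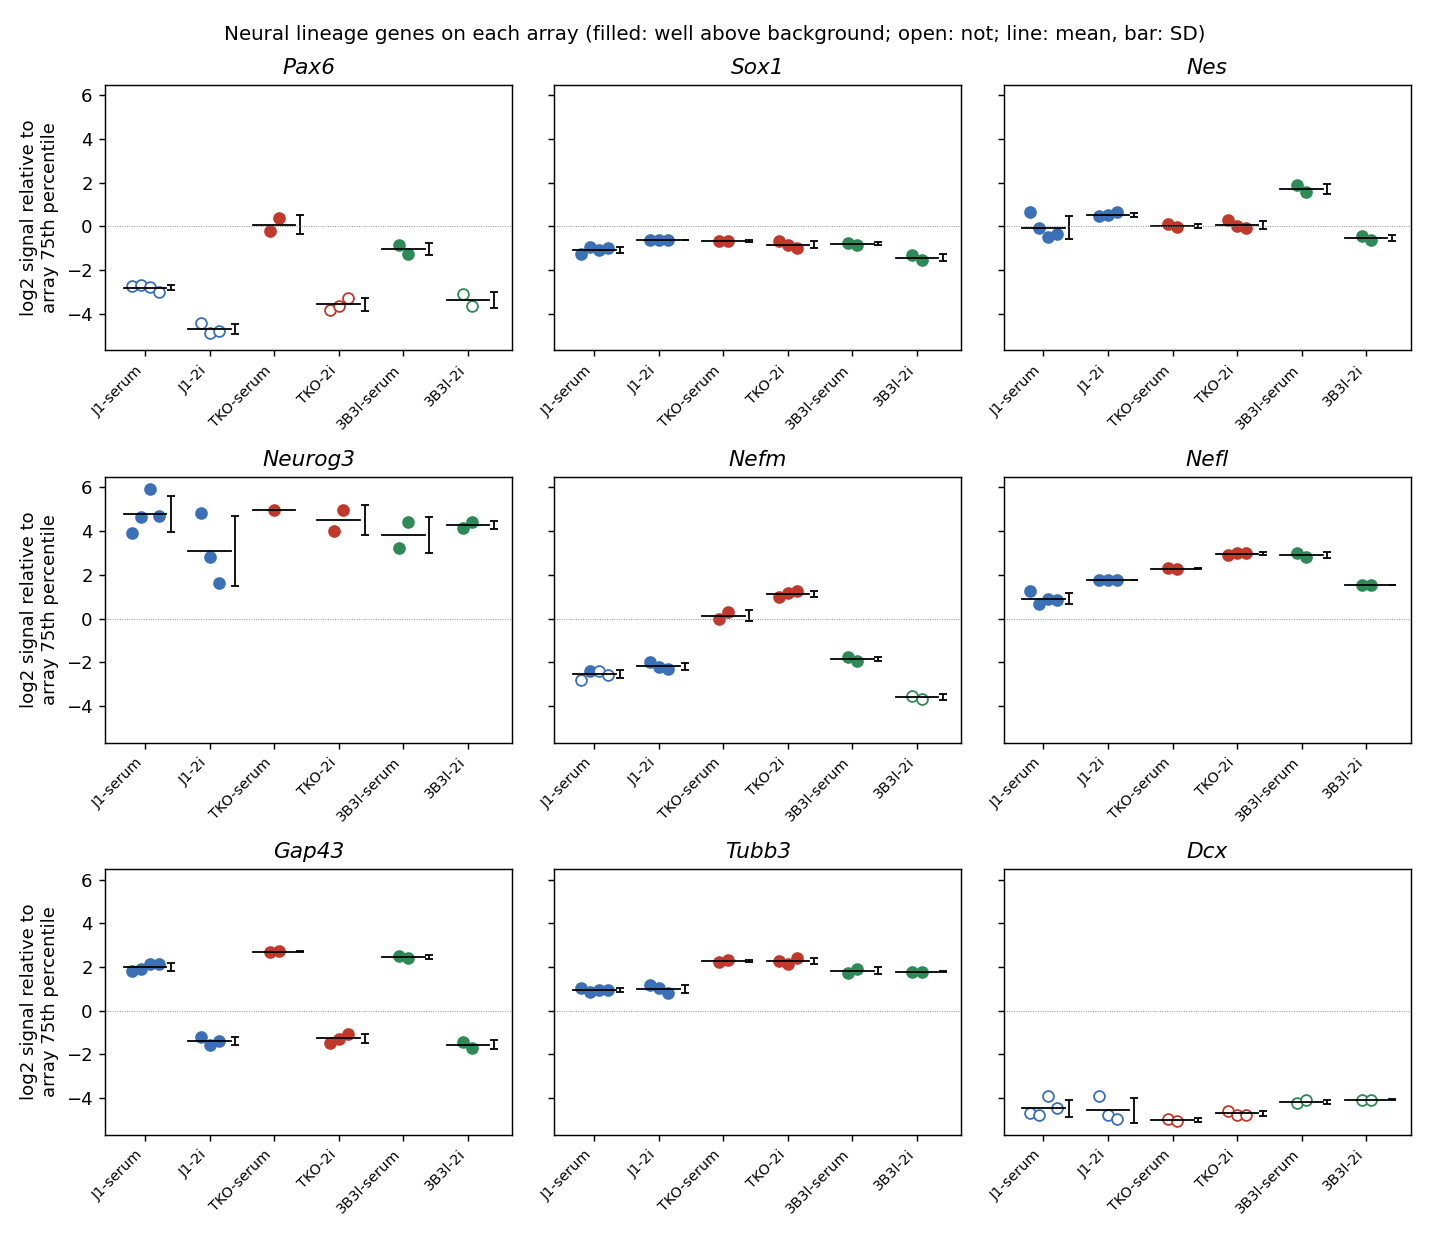
Level of each gene on each of the 16 arrays, by its brightest probe (vertical axis, log2 signal with the array's 75th percentile set to 0; horizontal axis, the 6 groups). Filled points were well above background and open points were not, the line is the group mean and the bar the SD; a single value has no SD. Gap43 separates the media, Tubb3 the lines, Neurog3 scatters within groups and Dcx stays near -4 to -5.

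Of the 13 probes, 8 qualified for the test, which a probe did if all arrays of some group had it well above background, and each belonged to a different gene. Dcx was the only gene with no tested probe. None of its 3 probes was well above background on any array, and its brightest lay between -5.05 and -3.90. The second probes of Pax6 and Sox1 were likewise not well above background on any array, so each of these genes rests on 1 probe. Nefm was measured by 10 spots per array and Pax6 by 2, and all others by 1.

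Pax6 was detected in serum in both engineered lines and nowhere else. TKO-serum arrays read -0.23 and 0.40 and 3B3l-serum arrays -0.87 and -1.24. In 2i they read -3.81, -3.64 and -3.27 in TKO and -3.11 and -3.63 in 3B3l, none well above background. J1 arrays were not well above background in either medium, at -2.73, -2.70, -2.76 and -2.99 in serum and -4.44, -4.87 and -4.80 in 2i. No 2i array overlapped the serum arrays of its line. Pax6 was at least 10.4-fold lower in TKO-2i than in TKO-serum (log2 difference -3.66 ± 0.23, SE; adjusted p = 1.1e-07, limma) and at least 2.40-fold lower in 3B3l-2i than in 3B3l-serum (-2.31 ± 0.25; adjusted p = 2.1e-05, limma). Among serum cultures TKO exceeded J1 by at least 6.76-fold (Pax6 difference 2.88 ± 0.22; adjusted p = 6.1e-07, limma) and 3B3l exceeded J1 by at least 3.07-fold (1.74 ± 0.22; adjusted p = 3.4e-05, limma). These folds are bounds, taken against the lowest signal well above background on the dim arrays. Pax6 qualified for the test only through TKO-serum and 3B3l-serum, where it is high, so the p-values of those groups are tied to that filter. The test was also passed by the 2i response of J1 and by both lines against J1 in 2i, but with both groups not well above background no fold is given. The 3B3l result in 2i did not hold with slide as a block (difference 1.25), and its 2 groups shared no slide. The TKO result in 2i fell under 2-fold with normexp background correction (0.82) and quantile normalization (0.93). It did so too with the deposited table (0.98) and without TKO-2i replicate 3 (0.98).

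Sox1, by contrast, was well above background on all 16 arrays and changed little. Its levels were -1.27, -0.95, -1.10 and -1.01 in J1-serum, -0.64, -0.61 and -0.60 in J1-2i, -0.65 and -0.69 in TKO-serum and -0.67, -0.85 and -0.99 in TKO-2i. The 3B3l arrays read -0.74 and -0.84 with serum against -1.32 and -1.54 with 2i. Within J1 the 2i arrays lay above the serum arrays, and within 3B3l below them, while TKO overlapped. The 2i response was 0.47 ± 0.10 in J1 (SE; adjusted p = 0.0022, limma) and -0.64 ± 0.13 in 3B3l (adjusted p = 0.0033, limma), both under 2-fold. The responses of 3B3l and J1 differed by -1.11 ± 0.17 (adjusted p = 0.00036, limma), which is past 2-fold, but only just. Without 3B3l-2i replicate 2 it was -1.0, which no longer counted as 2-fold.

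Nes, the progenitor filament, was highest in 3B3l-serum and lowest in 3B3l-2i. The levels were 1.88 and 1.56 in 3B3l-serum against -0.42 and -0.63 in 3B3l-2i, which is 4.75-fold lower (-2.25 ± 0.29, SE; adjusted p = 8.6e-05, limma). J1-serum arrays read 0.67, -0.07, -0.49 and -0.36, the first of them on the slide of the 3B3l arrays, and J1-2i arrays 0.48, 0.50 and 0.64. TKO arrays read 0.09 and -0.04 in serum and 0.29, 0.02 and -0.09 in 2i. J1 media overlapped only through that first array, and TKO media overlapped with a 2i response of 0.05 (95% interval -0.53 to 0.63). In serum the 3B3l level of Nes was 3.45 times that of J1 (1.79 ± 0.25; adjusted p = 8.9e-05, limma) and in 2i it was 2.10-fold lower (-1.07 ± 0.27; adjusted p = 0.0074, limma). These line differences moved with the slide. On slide 3 alone 3B3l-serum exceeded its 1 J1-serum array by 1.06. With slide as a block, which rests on that 1 array, the differences were 1.06 in serum and -2.04 in 2i. Without 3B3l-2i replicate 2 the difference in 2i was -0.96 (adjusted p = 0.057, limma). The response of 3B3l differed from that of J1 by -2.85 ± 0.37 (adjusted p = 1e-04, limma), and by -3.10 with slide as a block.

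Neurog3, the proneural factor, scattered most within groups. J1-serum arrays read 3.91, 4.65, 5.92 and 4.70, the third of them saturated, and J1-2i arrays 4.83, 2.83 and 1.62. The single spot was dropped as an outlier on TKO-serum replicate 2 and TKO-2i replicate 2, which left 4.98 in TKO-serum and 4.02 and 4.98 in TKO-2i. The 3B3l arrays read 3.24 and 4.41 with serum against 4.14 and 4.40 with 2i. All readings were well above background, but apart from the TKO media, where a single serum value was left, the groups compared overlapped, and Neurog3 was called in none of the 9 comparisons (the J1 response was -1.70 ± 0.70, SE; adjusted p = 0.068, limma). With the normexp background correction the response of J1 passed, at -1.75 (adjusted p = 0.041, limma). Without J1-2i replicate 1 the response of J1 was -2.57 (adjusted p = 0.0052, limma), and the differences in 2i of TKO and 3B3l from J1 passed too, at 2.28 and 2.05 (adjusted p = 0.042 and 0.040, limma), as did that of the 3B3l response from that of J1, at 3.01 (adjusted p = 0.034, limma).

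The neurofilament genes Nefl and Nefm, neighbours on chromosome 14 with only a pseudogene listed between them, were both higher in TKO than in J1. Nefm read -0.03 and 0.32 in TKO-serum and 0.98, 1.16 and 1.24 in TKO-2i. In J1 it read -2.79, -2.38, -2.40 and -2.58 in serum, with only the second well above background, and -2.0, -2.23 and -2.30 in 2i. 3B3l-serum read -1.77 and -1.92, and 3B3l-2i -3.52 and -3.69, not well above background. TKO arrays thus lay above every array of the other lines in both media. In serum Nefm was higher in TKO than in J1 (fitted 6.40-fold, 2.68 ± 0.15, SE; adjusted p = 4.5e-08, limma), but only 1 of 4 J1-serum arrays had it well above background, so that fold is not a fully measured size. In 2i, the contrast for which it was chosen, the ratio was 9.85, and TKO-2i was 1.97-fold above TKO-serum.

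Nefm in 3B3l went the other way, at least 1.39-fold lower in 2i than in serum (-1.76 ± 0.17, SE; adjusted p = 7.4e-06, limma). The response of 3B3l differed from that of J1 in the fit (adjusted p = 1.4e-05, limma), but with no 3B3l-2i array and 1 of 4 J1-serum arrays well above background its size was not measured. Both 3B3l-2i arrays lay below all J1-2i arrays (at least 1.1-fold; adjusted p = 2.2e-05, limma).

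Nefl, the light neurofilament subunit, was well above background on all arrays. It read 1.27, 0.65, 0.89 and 0.85 in J1-serum, 1.76 on all 3 J1-2i arrays, 2.31 and 2.27 in TKO-serum and 2.89, 3.01 and 3.01 in TKO-2i. In 3B3l it read 2.99 and 2.83 in serum and 1.55 and 1.53 in 2i. The media did not overlap in any line, and 2i was the higher in J1 and TKO and the lower in 3B3l. The response was 0.85 ± 0.12 in J1 (SE; 1.80-fold; adjusted p = 7.8e-05, limma), 0.68 ± 0.15 in TKO (1.60-fold; adjusted p = 0.0030, limma) and -1.37 ± 0.16 in 3B3l (2.58-fold lower; adjusted p = 3.3e-05, limma). The difference of the 3B3l and J1 responses was -2.22 ± 0.20 (adjusted p = 5.5e-06, limma), while that of TKO and J1 was -0.17 (95% interval -0.58 to 0.24). TKO exceeded J1 2.60-fold in serum (adjusted p = 6e-06, limma) and 2.31-fold in 2i (adjusted p = 3e-05, limma). 3B3l exceeded J1 3.99-fold in serum (adjusted p = 2.2e-07, limma), whereas in 2i the difference was -0.22 (95% interval -0.54 to 0.10) and, with slide as a block, -0.70.

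**Figure D2:**
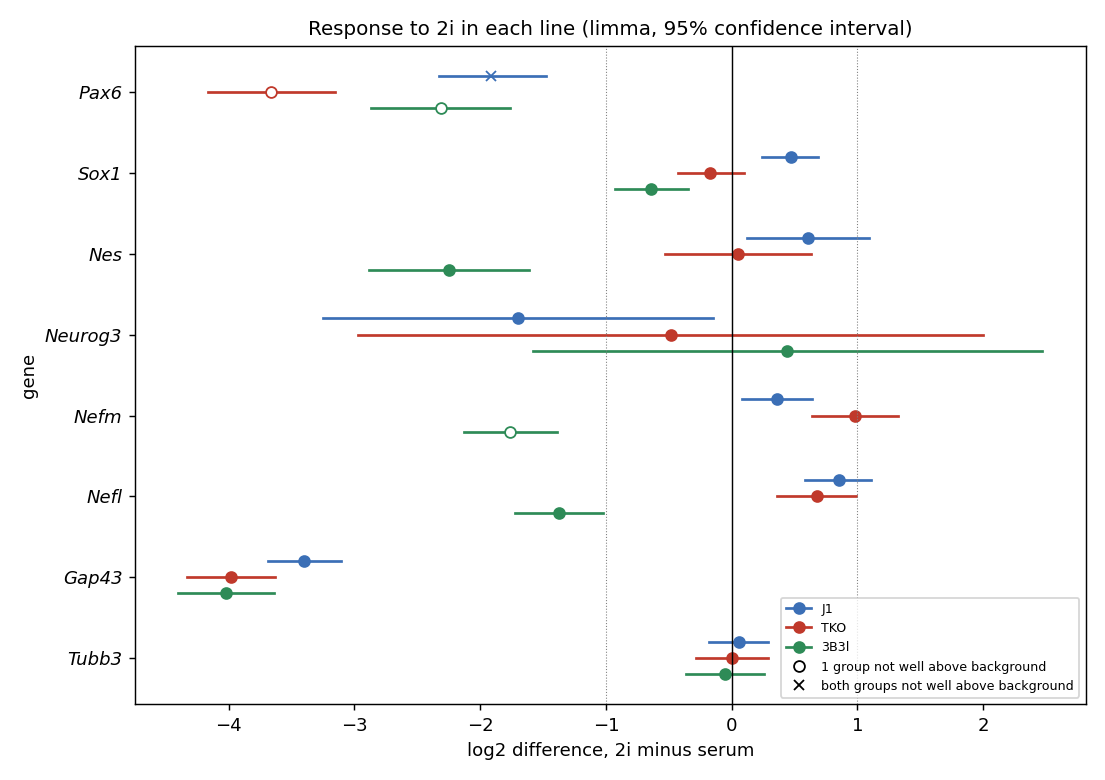
Response to 2i of the 8 tested genes in each line (horizontal axis, log2 difference, 2i minus serum; lines are 95% confidence intervals, dotted lines mark 2-fold, open points have 1 group and crosses both groups not well above background). In 3B3l, Nes, Nefm and Nefl lie at -2.25, -1.76 and -1.37, whereas in J1 and TKO they lie between 0.05 and 0.98. The Nefm point of 3B3l is open, and its fall is bounded at 1.39-fold. Gap43, and Nefm in TKO, are shown as a description.

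Gap43, the growth cone protein, was chosen for its gap between media, which is given as a description. Serum arrays read 1.80, 1.93, 2.15 and 2.14 in J1, 2.68 and 2.74 in TKO and 2.52 and 2.39 in 3B3l. In 2i the readings were -1.21, -1.59 and -1.38 in J1, -1.46, -1.28 and -1.06 in TKO and -1.42 and -1.71 in 3B3l. All were well above background, and the highest 2i array of any line was below the lowest serum array by more than the range of either. The ratio of serum to 2i was 10.6 in J1, 15.8 in TKO and 16.2 in 3B3l. Between lines, which the choice of genes did not use, TKO-serum exceeded J1-serum by 0.71 ± 0.15 (SE; 1.63-fold; adjusted p = 0.0024, limma) and 3B3l-serum by 0.45 ± 0.15 (1.37-fold; adjusted p = 0.028, limma). In 2i the differences from J1 were 0.13 for TKO (95% interval -0.18 to 0.44) and -0.17 for 3B3l (-0.51 to 0.18).

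The genes whose main probe followed Gap43 most closely over the 16 arrays, of 13601 ranked, were Myl9 (Pearson r = 0.993), Fndc4 (0.987), Sox4 (0.985), Nt5dc2 (0.985) and Gnat2 (0.983). The arrays share groups, and every one of these genes was lower in 2i in all lines, for example Sox4, whose group means in J1, TKO and 3B3l were 0.50, 0.97 and 1.17 with serum but -1.80, -1.83 and -1.56 with 2i. For Nefm they were Gm5936 (r = 0.954), Slc9a3r2 (0.954), Efhc2 (0.944), Gm5640 (0.943) and Npepl1 (0.931). Efhc2 had group means of 2.07 and 1.68 in TKO-serum and TKO-2i against -0.85 and -0.35 in J1. Among the genes themselves the highest correlation was that of Pax6 with Gap43 (r = 0.82), although Pax6 was not well above background in most groups. Nefl followed Tubb3 (r = 0.80) and Nefm (r = 0.72), and the correlations of Gap43 with these 3 were near 0 (r between -0.15 and -0.03).

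Tubb3, the beta-tubulin of neurons, differed between lines and not detectably between media. J1 arrays read 1.06, 0.84, 0.97 and 0.93 in serum and 1.18, 1.05 and 0.80 in 2i. TKO arrays read 2.22 and 2.31 in serum and 2.29, 2.12 and 2.40 in 2i, and 3B3l arrays 1.71 and 1.93 in serum and 1.76 and 1.79 in 2i. The media overlapped in every line, whereas no TKO or 3B3l array overlapped the J1 arrays. TKO exceeded J1 by 1.32 ± 0.12 in serum (SE; 2.49-fold; adjusted p = 3.5e-06, limma) and by 1.26 ± 0.12 in 2i (2.40-fold; adjusted p = 8.6e-06, limma). 3B3l exceeded J1 by 0.87 ± 0.12 in serum (1.83-fold; adjusted p = 8.5e-05, limma) and by 0.77 ± 0.13 in 2i (1.71-fold; adjusted p = 0.00062, limma, but 0.072 with slide as a block). The response to 2i was 0.06 in J1 (95% interval -0.18 to 0.29), 0.00 in TKO (-0.28 to 0.29) and -0.05 in 3B3l (-0.36 to 0.26).

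**Figure D3:**
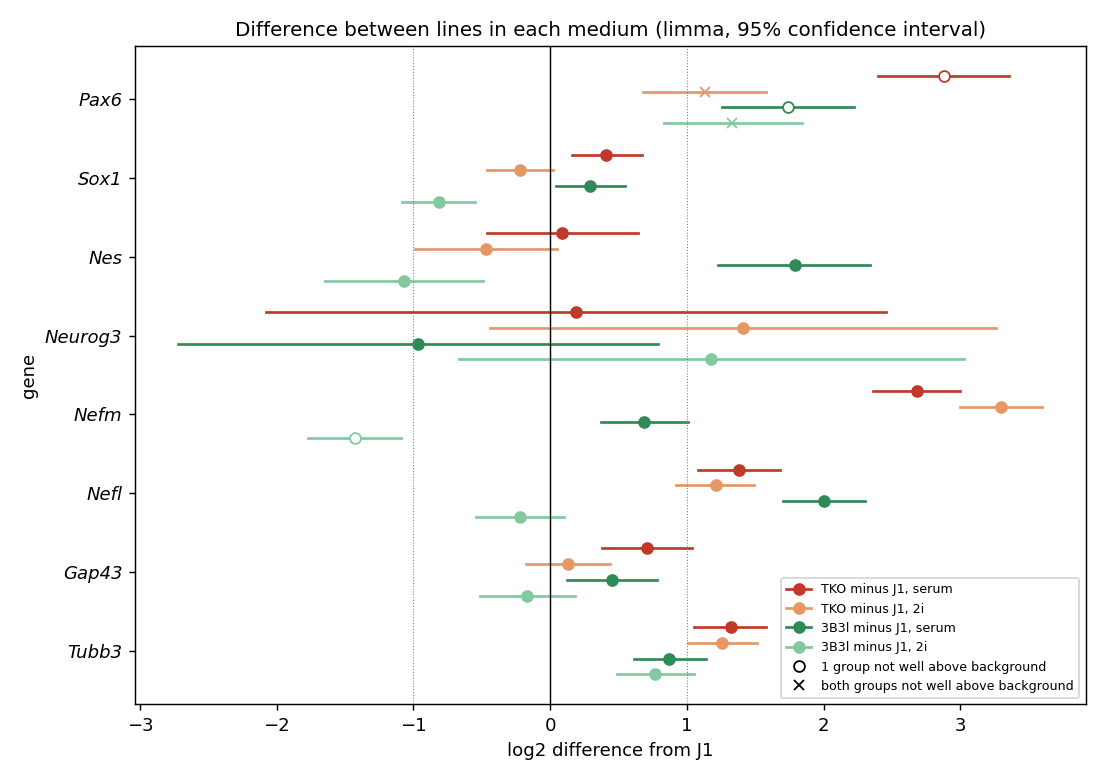
Difference of TKO and 3B3l from J1 in each medium for the 8 tested genes (horizontal axis, log2 difference from J1; intervals, dotted lines, open points and crosses as for the responses). Nefl and Tubb3 lie right of 2-fold for TKO in both media, Nefm in TKO in 2i is shown as a description, and Nes in 3B3l lies at 1.79 in serum and -1.07 in 2i.

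To be called, a gene needed a 2-fold difference with an adjusted p no higher than 0.05. With 2i, 2 of the 8 genes were called in J1, both lower (Pax6 and Gap43), where 13.8% of all 13912 genes tested were called lower and 11.5% higher. The same 2 were called lower in TKO (10.2% of all genes lower, 7.50% higher). In 3B3l 5 were called, all lower (Pax6, Nes, Nefm, Nefl and Gap43), against 8.63% of all genes lower and 6.25% higher. Gap43 and its share in these counts come from the choice of genes. Pax6 qualified for the test only through TKO-serum and 3B3l-serum, where it is high, and was not well above background on any J1 array. The fall of Nefm in 3B3l is bounded at 1.39-fold. For TKO against J1 in serum, 4 were called, all higher (Pax6, Nefm, Nefl and Tubb3), against 9.20% of all genes higher and 9.85% lower. The same 4 were called in 2i (4.48% of all genes higher, 4.01% lower), where the choice used Nefm and Pax6 was not well above background. For 3B3l against J1, 3 were called in serum, all higher (Pax6, Nes and Nefl), against 11.5% of all genes higher and 11.2% lower. In 2i Pax6 was called higher and Nes and Nefm lower (9.12% of all genes higher, 7.77% lower). There Pax6 was not well above background in either group and lost its call with slide as a block, and the Nefm difference is bounded at 1.1-fold. The response to 2i differed from that of J1 for 1 gene in TKO (Pax6, lower), against 8.60% of all genes lower and 8.82% higher. That call rests on J1-serum, J1-2i and TKO-2i groups in which Pax6 was not well above background, so no size is given. It differed for 4 genes in 3B3l, all lower (Sox1, Nes, Nefm and Nefl), against 9.88% of all genes lower and 10.1% higher. Comparisons that share the J1 arrays are not independent of each other. With slide 1 alone, Nes also passed for TKO (-1.05, adjusted p = 0.0077, limma). Over all probes, the median difference of 3B3l from J1 in serum was 0.15.

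Other genes of neural development are given by list, and the lists were not tested against each other. In this account a list's median is over its main probes, and the median over all genes lay between -0.05 and 0.13, and the shares of all genes called are those just given. The lists were drawn up with results of these arrays known. Of 18 factors of neural plate and patterning, 13 were tested. In TKO-serum 7 were higher than in J1-serum and none lower (median 1.25), with Sox21 8.12-fold, Zic2 6.89-fold and Gbx2 5.60-fold higher. In 3B3l-serum 5 were higher and 2 lower (median 0.74). With 2i, 7 fell and 1 rose in TKO (median -1.03) and 5 fell and 2 rose in 3B3l (median 0.03), whereas in J1 3 rose and 2 fell (median 0.00). Otx2, a factor of the epiblast and the forebrain, fell 4.13-fold in TKO and 11.6-fold in 3B3l. In J1 Sox11, a factor of neural progenitors and young neurons, fell 9.06-fold by its brightest probe, with 1 of 3 J1-2i arrays well above background, and it fell in 3B3l by at least 8.90-fold and in TKO by 2.50-fold. Sox21 and Zic2 rose in J1, 4.03-fold and 3.78-fold.

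Of 14 proneural and Notch genes, 8 were tested. With 2i, 5 fell in J1 (median -1.34), 6 in TKO (median -1.34) and 3 in 3B3l (median -0.85), while Hes1, a Notch effector that holds back neurogenesis, rose in each. Dll1, a Notch ligand, fell in J1, TKO and 3B3l by at least 21.1-fold, 11.9-fold and 1.91-fold. For Neurod1, a factor of neuronal differentiation, the same bounds by its brightest probe were 18.7-fold, 19.1-fold and 2.67-fold. Both were lower in 3B3l-serum than in J1-serum, by 5.18-fold and 4.67-fold, and TKO differed from J1 in serum by 1 call (Dll3, 3.14-fold higher).

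All 16 genes of neuronal cytoskeleton and growth cone were tested. With 2i, 5 fell in J1 (median -0.23), 9 in TKO (median -1.19) and 7 in 3B3l (median -0.55), and 1, 3 and 3 rose. Basp1, a growth cone protein like Gap43, fell 9.07-fold in J1 and 12.6-fold in TKO. In 3B3l it fell 2.88-fold, and this response differed from that of J1 (1.66 ± 0.30 on the log2 scale, SE; adjusted p = 0.0012, limma) and the level in 2i was 5.21-fold that of J1. Prph, a neuronal intermediate filament protein, fell 10.0-fold in J1, with 1 of 3 J1-2i arrays well above background. Of the other neurofilament partners, Ina was 5.14-fold higher in TKO-serum and 4.82-fold higher in 3B3l-serum than in J1-serum, and Nefh 5.30-fold and 2.36-fold. In 2i Nefh was 2.73-fold higher in TKO and 2.90-fold higher in 3B3l than in J1, and Ina 3.24-fold higher in 3B3l. For the list in 2i, 4 genes were higher and 1 lower in TKO than in J1, and 7 higher and 1 lower in 3B3l. With 2i, Ina fell in TKO by 6.22-fold and Nefh by 3.20-fold.

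Of 14 genes of neuronal RNA binding, adhesion and synapse, 12 were tested. With 2i, 3 fell and 2 rose in J1 (median -0.41), 4 fell and 1 rose in TKO (median -0.43) and 1 fell in 3B3l (median -0.66). Elavl3 fell at least 9.24-fold and Nrcam at least 3.99-fold in J1 with 2i while Ncam1 rose 5.78-fold. The gene called in 3B3l was Rbfox3, 2.47-fold lower. Elavl3 there, at -0.99 (adjusted p = 0.010, limma), was just short of the 2-fold threshold and was not well above background in 3B3l-2i. Nrcam was not well above background on any 3B3l array, so no size is given for it. Among 6 repressors of neural genes, all tested, Id2 fell with 2i in J1, TKO and 3B3l by 17.7-fold, 11.7-fold and 50.4-fold, with 1 of 2 3B3l-2i arrays well above background, and Id1 by 8.52-fold, 4.04-fold and 4.80-fold. Id proteins inhibit basic helix-loop-helix factors. In serum 5 of the 6 were higher in 3B3l than in J1 (median 1.53), and 1 in TKO.

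**Figure D4:**
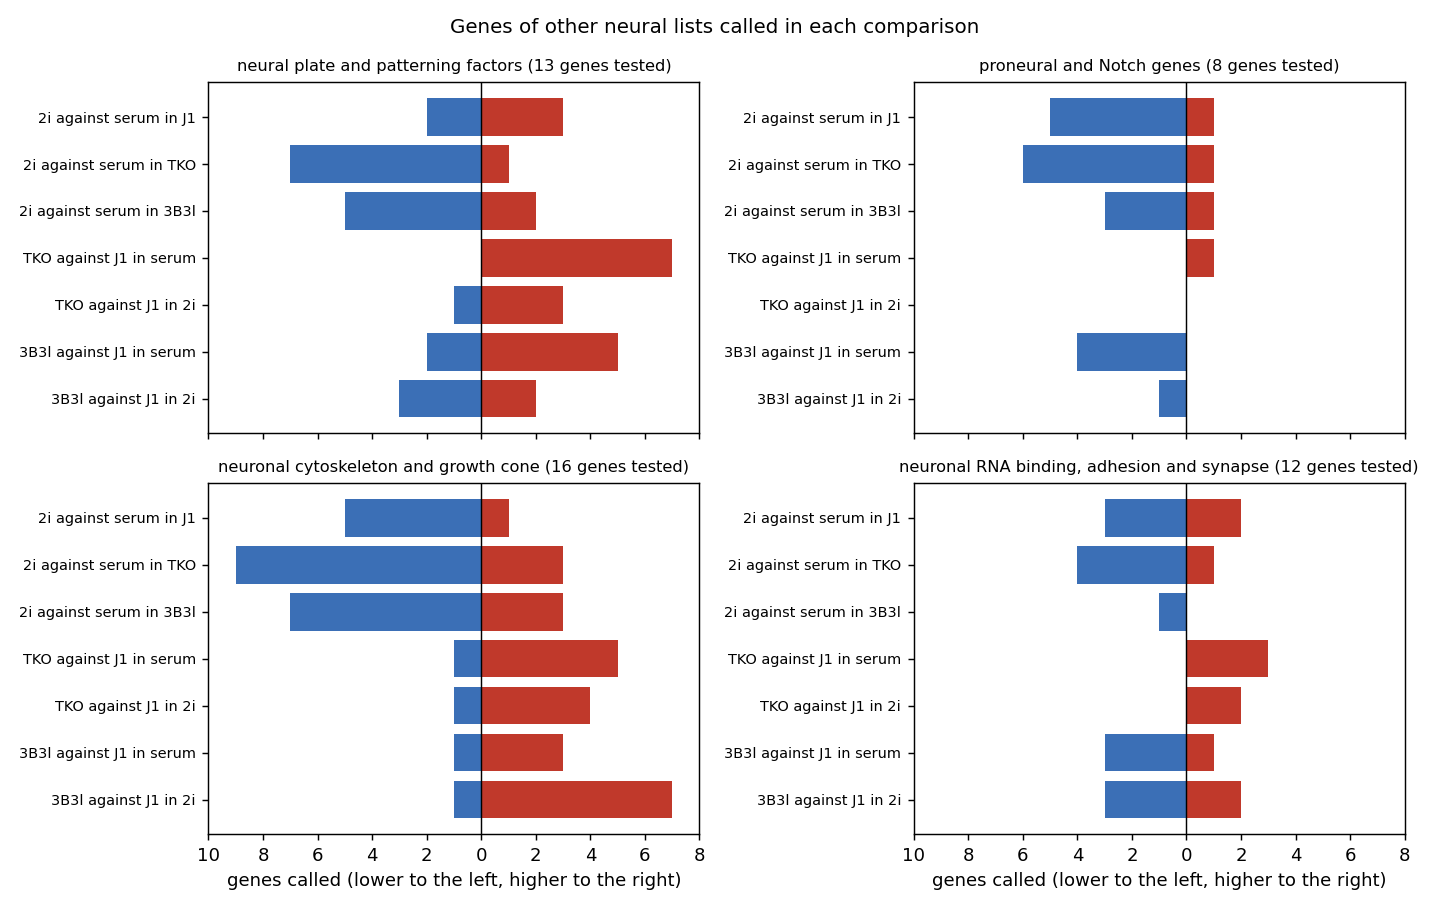
Number of genes called in 4 lists of other neural genes (horizontal axis, genes called, lower to the left and higher to the right; vertical axis, the comparison). The bars for 2i reach 9 lower in TKO for the cytoskeleton list, and those for TKO against J1 in serum reach 7 higher for patterning factors.

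Markers of other cell types that could carry such genes were measured beside them. Of 7 glial markers, Gfap was not well above background on any array of J1-serum, TKO or 3B3l, and S100b on none of J1-2i, TKO or 3B3l; the summed level was 2.42 to 16.8 over all arrays. Of 5 neural crest markers Tfap2b was not detected on any array, and the summed level was 1.16 to 1.59 in J1-serum and between 4.40 and 12.0 in the other groups. In TKO-serum and 3B3l-serum Foxd3, a neural crest factor that mESCs also express, was at least 16.9-fold and 18.6-fold higher than in J1-serum. Of 7 pancreatic endocrine markers, Pdx1 and Gcg were not detected on any array, Ins2 and Chga were well above background on all 16, and the summed level lay between 2.14 and 5.79. Insm1, a factor of endocrine and neuronal progenitors, was 7.33-fold higher in TKO-serum and 2.92-fold higher in 3B3l-serum than in J1-serum, and fell with 2i in J1, TKO and 3B3l by at least 3.49-fold, 18.6-fold and 5.85-fold. The part of such cells in the results was not tested, and fewer cells of a type and less RNA per cell cannot be told apart in these samples.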

How the data were processed

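Total RNA was labelled with Cy3 and hybridised to 16 Agilent 8x60K mouse arrays. Per the file headers, Agilent Feature Extraction (version 11.5.1.1) made the deposited scanner files, whose processed signal is a background-subtracted intensity with no scaling between arrays. Processed log2 values of 30170 probes were deposited as well; 3 of its 16 columns correlated best with the scanner file of the same sample and all 16 with one of the same group, so this table, of unstated normalization, with column medians from 8.28 to 8.43, served as an alternative only. Groups came from the labels.

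Values were log2 intensity minus the array's 75th percentile over non-control spots. Outlier spots were dropped (saturated spots kept), and spots of a probe averaged. A probe was tested if all arrays of some group had it well above background (27113 probes, 9270 without a gene name). limma 3.58.1 in R 4.3.3 fitted 6 group means over 16 arrays with eBayes, in 9 comparisons, two-sided, with Benjamini-Hochberg adjustment over all tested probes. One probe past 2-fold with an adjusted p no higher than 0.05 sufficed to call a gene. The probe with the highest mean stood for a gene. Symbols came from RefSeq accessions through assembly GRCm38.p6. Where Neurog3 lacked a value, its fit used the remaining arrays.

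The genes and lists were chosen with earlier results of these data known. Named were all 9 genes, in each list genes among the 3 largest changes called in a comparison, and the 5 genes most like Gap43 and Nefm; Hes1, Ins2, Chga and the members given as undetected were named after their values were seen. The method was tested on simulated data. Alternatives were normexp background correction (on the median signal, since the files used hold no mean signal), other scalings, filters, thresholds, blocks, subsets of arrays and the deposited table.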

Additional observations from a re-analysis of the deposited data

Results flagged for a closer look

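Responses to 2i that differed between lines by the test of the difference itself are listed with their log2 differences. For Pax6 the fitted difference of the TKO response from that of J1 was -1.75, which is not a measured size, since J1-serum, J1-2i and TKO-2i were not well above background. Compared with J1, the response of 3B3l was lower by -1.11 for Sox1, by -2.85 for Nes and by -2.22 for Nefl. For Nefm the fitted difference was -2.12, likewise not a measured size, since no 3B3l-2i array and 1 of 4 J1-serum arrays were well above background, and the response of 3B3l itself is bounded at 1.39-fold. All 3B3l arrays lay on 1 slide, shared with 1 J1-serum array. With slide as a block, which rests on that 1 array, the differences for Sox1, Nes, Nefm and Nefl were -1.05, -3.10, -2.03 and -2.34. Line and slide therefore cannot be told apart. No J1-serum array stood apart from the other 3 by Dixon's test for any of the 13 probes.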

How the results depend on the processing

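No log2 difference of the 8 tested genes called in a comparison changed sign under any alternative. Counts of genes called that moved by over 1.5 times are given first. With only probes well above background on all 16 arrays, which removes Pax6 and Nefm, 1 gene was called with 2i in J1, 1 in TKO and 3 in 3B3l, 2 for TKO against J1 in serum and 2 in 2i, 1 for 3B3l against J1 in 2i and 0 for the difference of the TKO and J1 responses; over all genes these counts fell too, for example from 3511 to 1573 with 2i in J1. With no limit on the fold change, 6 genes were called with 2i in J1 and 4 in TKO, 6 for 3B3l against J1 in serum and 5 in 2i, and 3 for the difference of the TKO and J1 responses; over all genes the count with 2i in J1 was 8196. With normexp background correction 1 was called for 3B3l against J1 in 2i, and over all genes 707 in place of 1180 for TKO against J1 in 2i. On slide 1 alone 2 were called for the difference of the TKO and J1 responses. Where a call also needed an array well above background, chosen after seeing the data, 1 was called with 2i in J1.

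Leaving out each array in turn gave 2 to 3 genes called with 2i in J1, 2 to 3 in TKO and 5 to 5 in 3B3l, 4 to 4 for TKO against J1 in serum and 3 to 5 in 2i, 3 to 3 for 3B3l against J1 in serum and 2 to 4 in 2i, and 1 to 1 and 3 to 5 for the differences of the TKO and 3B3l responses from J1. Pax6 in TKO against J1 in 2i fell under 2-fold with normexp (0.82), quantile normalization (0.93), the deposited table (0.98) and without TKO-2i replicate 3 (0.98), and in 3B3l against J1 in 2i it lost its call with slide as a block (adjusted p = 0.052, limma). With normexp the values for 3B3l fell under 2-fold for Nefm with 2i (-0.97), for Nes and Nefm against J1 in 2i (-0.97 and -0.66) and for the Sox1 response (-0.79 against J1). With the deposited table Nefm in 3B3l against J1 in 2i was -0.99. Their causes were not tested. The array numbers did not pair the samples (correlations of same-numbered arrays between -0.27 and 0.29), and the replicate block left 2 genes called with 2i in J1 and changed no call of the 8 genes. The number of arrays per group limits the precision.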
